A study of Danio rerio with 16 samples.

Results

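Gene expression in fbn3-/- zebrafish embryos was compared with that in wild-type (WT) siblings at 2 days post fertilization (dpf). All libraries labelled as mutant or WT at this stage were taken, which were 5 fbn3-/- and 3 WT libraries, or 8 of the 15 libraries of the series that had a column in the count table. Each library held the total RNA of 10 pooled whole embryos. The labels give the genotypes as fbn2b -/- and fbn2b +/+, since the gene that the study calls fbn3 has the symbol fbn2b in the count table, and fbn2b is used here for the transcript. The fbn3 line that the study describes for embryos is a stable CRISPR/Cas9 line with a frameshift deletion of 4 bp in exon 4. It was crossed out to the AB strain, and the lines used for injection carried fluorescent reporters. The study also lists another fbn3 line with a longer deletion from the same guide. The labels and methods do not name the line that was sequenced. Per the study, fbn3-/- embryos show atrophy of the fin fold. Only a part of them have marked pericardial edema, with gaps in the endocardium that lead to its detachment. The others have a milder phenotype, without this edema and with an attached endocardium. A pool of fbn3-/- embryos may therefore have mixed degrees of phenotype. The 7 libraries at 1 dpf (4 WT and 3 fbn3-/-) entered the same fit and are given beside the 2 dpf values.

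Fibrillins are large secreted glycoproteins that assemble into microfibrils, the scaffold on which elastin is laid down in elastic fibers. Microfibrils also hold latent TGF-β and BMP complexes in the matrix and bind integrins on cells, and mutations of fibrillin-1 in humans cause Marfan syndrome. In zebrafish embryos the median fin fold is a thin epidermal fold stiffened by collagen-like actinotrichia, and the caudal vein and heart form in the same period. The genes described are those that differed across the genome, other than complement components and matrix metalloproteinases (MMPs).

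The guide RNA that made the line defines the targeted site, and it is shown because the label of every mutant library rests on it. It is written as DNA, 5′ to 3′, from the table of guides of the study, with the 10 bases nearest the PAM (the seed) in capitals.
fbn3 guide: tgcgagagcgGATGTCAGAA

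The targeted transcript checked the labels. In CPM, the read count scaled to the library size (here with the TMM method), fbn2b (ENSDARG00000098237) measured 230, 164, and 239 in WT replicates 1, 2, and 3. It measured 20.8, 18.8, 19.4, 18.4, and 15.09 CPM in fbn3-/- replicates 1 to 5, so that each library matched its label and the groups were far apart. The log2 fold change (log2FC) was -3.51 ± 0.27 (SE), an 11.4-fold lower level, with a false discovery rate (FDR) of 1.22e-05. At 1 dpf the same contrast gave a log2FC of -3.02.

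Total counts ranged from 52451122 to 179887580 reads at 2 dpf. Of 29 marker genes of 12 tissues, 27 had a symbol in the table, and heart, muscle, blood, vessel, neuron, epidermis, lens, pigment, and leukocyte markers were above 1 CPM in every library. The liver marker fabp10a was as low as 0.283 CPM, and the hatching gland was represented by ctslb alone. The shares of counts in mitochondrially encoded, ribosomal protein, globin, muscle, lens crystallin, and the 50 most abundant genes did not pass an exact permutation test between genotypes (2-sided, the lowest of 6 p-values was 0.357, and adjusted p was 0.793 for that class). Since whole embryos were pooled, fewer cells of a type and less RNA per cell cannot be told apart.

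The 8 libraries also differed by library number. In a multidimensional scaling of the 2 dpf libraries, dimension 1 held 40.3% of the variance and separated the 4 lower-numbered libraries (WT replicate 1 and fbn3-/- replicates 1 to 3) from the 4 higher-numbered ones (WT replicates 2 and 3 and fbn3-/- replicates 4 and 5). Dimension 2 held 18.8% and separated the genotypes, from 0.45 to 1.28 in WT and from -1.29 to -0.122 in fbn3-/-. Genotype contrasts within the 2 sets, chosen after the data were seen, gave 17 called genes in the lower-numbered and 794 in the higher-numbered libraries. The genotype effect differed between the sets at an FDR under 0.05 for 1554 genes, or 6.6% of those tested, and had the same sign in both sets for 39.6% of genes. The labels do not say what the library numbers stand for. None of the 35 called genes described here was among those 1554, and all 35 kept their sign within both sets, although they were selected on the same libraries. With the set as a covariate, 33 of the 35 stayed called. The labels mark no break between the sets, whose members are those that dimension 1 separates. Since the 35 were selected on these libraries, the covariate fit is not an independent check.

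**Figure D1:**
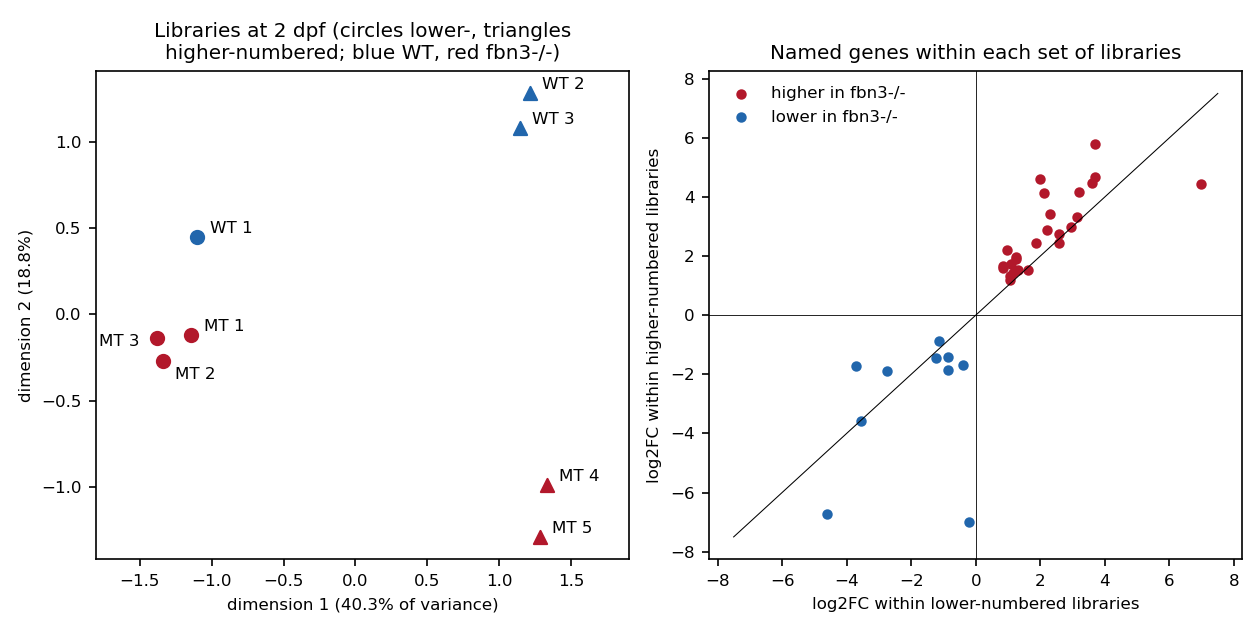
Left, multidimensional scaling of the 8 libraries at 2 dpf (dimension 1 on the x axis with 40.3% and dimension 2 on the y axis with 18.8% of the variance), with circles for lower-numbered and triangles for higher-numbered libraries, blue for WT and red for fbn3-/-. Right, log2FC of the 35 named genes within the lower-numbered (x axis) and the higher-numbered libraries (y axis), 1 point per gene, with the line of equal values: each gene lies on the same side of 0 in both sets.

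Across the genome, 42 of 23555 genes passed an FDR under 0.05 with an absolute log2FC above 1, and these are called genes in what follows. Of them 32 were higher in fbn3-/- embryos, which is 0.136% of the genes tested, and 10 were lower, which is 0.0425%. The higher genes held 5 complement components and 2 MMPs, which are not described further, and 25 others. At an FDR under 0.05 with any fold, 45 genes (0.191%) were higher, and the 13 that this adds were all higher in fbn3-/-. At an unadjusted p under 0.05, 1459 genes (6.19%) were higher and 987 (4.19%) were lower. Every fbn3-/- library lay above every WT library for 880 genes (3.74%) and below for 578 genes (2.45%), and the median log2FC of all genes was 0.0098. The number of calls depended on single libraries, with 192 calls without WT replicate 1, 18 without WT replicate 2, 13 without WT replicate 3, 24 without fbn3-/- replicate 2, 22 without replicate 4, and 27 without replicate 5. P-values rest on the spread within groups over all 15 pooled libraries, those at 1 dpf included, which the labels call biological replicates. The set of library numbers was left in this spread. A fit of the 2 dpf libraries alone called 20 genes. It kept 33 of the 35 called genes described here, and 14 of the 33 stayed called. The study, with edgeR at the same limits, reported a much larger number of differentially expressed genes at 2 dpf. The reason for this difference was not tested.

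**Figure D2:**
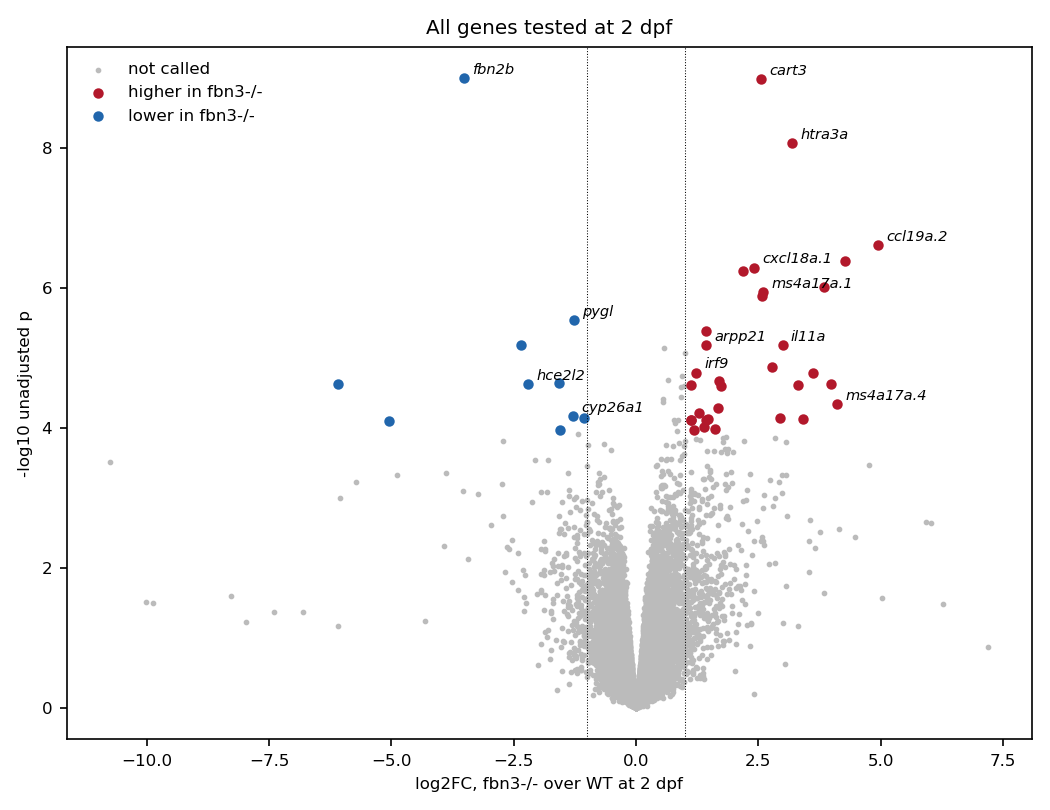
Each point is 1 of the 23555 genes tested, with log2FC of fbn3-/- over WT at 2 dpf on the x axis and -log10 of the unadjusted p on the y axis; dotted lines mark the fold limit. The 32 genes called higher (red) and the 10 called lower (blue) include fbn2b and cart3 at the top of the plot.

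Among secreted signals, 2 chemokines and an interleukin were higher in fbn3-/- embryos. The gene cxcl18a.1, a CXC chemokine, measured 0.265, 0.312, and 0.399 CPM in WT and 1.92, 1.81, 1.11, 1.61, and 2.49 CPM in fbn3-/- libraries. Its log2FC was 2.40 ± 0.30 (FDR = 0.00193), and the lowest fbn3-/- library lay well above the highest WT library. The gene ccl19a.2, related to the CC chemokine CCL19 that guides leukocytes through the receptor CCR7 in mammals, had 2, 2, and 0 reads in WT and 25, 13, 25, 83, and 53 reads in fbn3-/- libraries. Its ratio of pooled reads scaled to library size, fbn3-/- over WT, was 34.99 (FDR = 0.00143). With so few WT reads, the 95% counting interval ran from 13.5 to 130, which covers counting error only. The interleukin il11a, a cytokine of the IL-6 family, measured 0.0922, 0.0208, and 0.0713 CPM in WT and 0.462, 0.47, 0.439, 0.452, and 0.726 CPM in fbn3-/-, where replicate 5 was the highest and the other 4 were close together. Its log2FC was 3.00 ± 0.50 (FDR = 0.0105).

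Receptors and intracellular components of cytokine signaling were higher as well. The gene socs3b, a suppressor of cytokine signaling that STAT3 induces, measured 10.8, 12.3, and 9.11 CPM in WT and 31.2, 19.5, 17.7, 22.8, and 26.1 CPM in fbn3-/- libraries (log2FC 1.13 ± 0.21, FDR = 0.038). The TNF receptor tnfrsf1a measured 12.2, 15.7, and 13.8 CPM against 22.9, 28.2, 25.8, 34.8, and 39 CPM (log2FC 1.12 ± 0.21, FDR = 0.038). For il4r.1, a receptor chain for interleukin-4, the values were 2.62, 2.04, and 2.32 CPM against 5.38, 5.98, 5.28, 6.94, and 7.74 CPM (log2FC 1.44 ± 0.27, FDR = 0.038). In each of these genes the groups did not overlap, and the higher-numbered fbn3-/- libraries were the highest for tnfrsf1a and il4r.1. The gene irf9, which encodes the DNA-binding part of the interferon-activated complex ISGF3, measured 3.93, 4.96, and 4.08 CPM in WT and 8.63, 9.06, 8.67, 10.4, and 13.8 CPM in fbn3-/- (log2FC 1.23 ± 0.20, FDR = 0.0194). The shared signal-transducing receptor of the IL-6 family, il6st, was below the fold limit and is named after its values were seen. It measured 47.5, 39.8, and 41 CPM in WT and 67.5, 83.3, 80.8, 84.5, and 90.8 CPM in fbn3-/- libraries (log2FC 0.93 ± 0.16, FDR = 0.0194).

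Read by gene lists, whose members were chosen with earlier results of these data known, these pathways were uneven. Of 44 genes tested on the STAT3 and injury response list, 2 were called (il11a and socs3b), and the median log2FC was 0.0036, close to that of all genes. Every fbn3-/- library lay above every WT library for 11 of the 44 (25%, against 3.74% of all genes) and below for 0. At an unadjusted p under 0.05, 12 were higher (27.3%, against 6.19% of all genes) and 3 were lower (6.82%, against 4.19%). Of 47 inflammatory cytokines and NF-kB targets, 1 was called (cxcl18a.1), and the median was 0.12. At that p, 8 were higher (17%, against 6.19% of all genes) and 2 lower (4.26%, against 4.19%). The called genes ccl19a.2 and tnfrsf1a are not on this list. The 27 interferon response genes had 1 call (irf9), with 8 higher (29.6%, against 6.19% of all genes) and 0 lower at that p. In 8 (29.6%, against 3.74% of all genes) the fbn3-/- libraries all lay above WT. The median log2FC of the 27 genes, 0.37, was the third highest of the 49 lists. Set against the mean of the WT libraries, the median of the interferon list was 0.219, 0.169, and 0.0428 in fbn3-/- replicates 1, 2, and 3 (log2 scale). It was 0.552 and 0.617 in fbn3-/- replicates 4 and 5. In WT it was -0.127 in the lower-numbered replicate 1 and 0.153 and 0.038 in the higher-numbered replicates 2 and 3. The lower-numbered set held only 1 WT library, and the part of the set in this contrast was not tested.

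The gene htra3a encodes a secreted serine protease of the HtrA family, which in mammals binds TGF-β ligands. It measured 0.15, 0.187, and 0.157 CPM in WT and 1.49, 1.28, 1.26, 1.69, and 1.76 CPM in fbn3-/- libraries. These were tight groups a long way apart, with a log2FC of 3.19 ± 0.29 or a 9.14-fold higher level (FDR = 6.75e-05). The MMP inhibitor timp2b, the only call among 18 TIMPs and serpin inhibitors, measured 11.7, 11.5, and 12.5 CPM in WT and 21.2, 25.4, 16.3, 36.3, and 36.7 CPM in fbn3-/- (log2FC 1.19 ± 0.23, FDR = 0.0467). Within the lower-numbered libraries its log2FC was 0.84 and within the higher-numbered ones 1.6. The gene scpp8, which belongs to the secretory calcium-binding phosphoproteins and was kept on the neutrophil marker list, measured 0.346, 0.395, and 0.264 CPM in WT and 1.15, 1.49, 1.15, 1.47, and 2.15 CPM in fbn3-/- (log2FC 2.18 ± 0.30, FDR = 0.00193).

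Among elastic fiber genes, collagens, laminin chains, and fin fold matrix genes, fbn2b was the only call. Besides fbn2b, none of 31 elastic fiber and microfibril genes was called, and the median log2FC was 0.009. At an unadjusted p under 0.05, 5 were higher (16.1%, against 6.19% of all genes) and 3 lower (9.68%, against 4.19%, fbn2b included). The fibronectin gene fn1b of that list is named after its values were seen. It measured 455, 299, and 394 CPM in WT and 827, 1151, 1044, 732, and 857 CPM in fbn3-/- libraries. The groups did not overlap (log2FC 1.27 ± 0.31, FDR = 0.132), and DESeq2 called fn1b higher. None of 56 collagens was called, and their median was -0.11. At an unadjusted p under 0.05, 0 collagens were higher and 7 lower, or 12.5% of the list against 4.19% of all genes. The fibril-associated collagen col14a1b had the lowest p of them, with 96.8, 85.3, and 131 CPM in WT and 49, 70.8, 59.9, 60.4, and 63.3 CPM in fbn3-/- libraries (FDR = 0.114). The fibrillar collagen col1a2 followed with an FDR of 0.359. For 2 collagens (3.57%, against 2.45% of all genes) every fbn3-/- library lay below every WT library, and for 1 (1.79%, against 3.74%) above. Against the WT mean, the median of the collagen list ranged from -0.308 to 0.0181 in fbn3-/- and from -0.278 to 0.175 in WT libraries. These ranges overlapped. Of 17 fin fold matrix genes, none was called, and the actinodins and2 and and3, structural proteins of the actinotrichia, had the lowest p. For and2 the libraries gave 372, 206, and 356 CPM in WT and 142, 146, 112, 180, and 156 CPM in fbn3-/- (FDR = 0.461). For and3 they gave 135, 92.9, and 142 CPM against 47.3, 62.2, 42.8, 43.1, and 48.1 CPM (FDR = 0.441). The groups did not overlap for either actinodin, at log2FC values of -1.08 ± 0.49 and -1.34 ± 0.58, but the FDR was far from the limit. Their log2FC at 1 dpf was -1.40 and -1.74 (FDR = 0.654 and 0.665). Of the 17 genes, 0 were higher and 2 lower (11.8%, against 4.19% of all genes) at an unadjusted p under 0.05. For 3 (17.6%, against 2.45%) every fbn3-/- library lay below every WT library, and for 0 above.

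Laminins, integrins, and the TGF-β pathway had no called member. Of 13 laminin chains, 0 were higher and 1 lower (7.69%, against 4.19% of all genes) at an unadjusted p under 0.05. Of 34 integrin subunits, 5 were higher (14.7%, against 6.19%) and 1 lower (2.94%, against 4.19%). Of 60 TGF-β and BMP pathway genes, 5 were higher (8.33%) and 2 lower (3.33%) at that p. In 9 of the 60 (15%, against 3.74% of all genes) every fbn3-/- library lay above WT, and the median log2FC of the list was 0.043. The receptor tgfbr2a, which binds TGF-β itself, passed the FDR but not the fold limit. It measured 1.59, 1.59, and 1.77 CPM in WT and 2.54, 3.38, 2.82, 3.44, and 3.66 CPM in fbn3-/- (log2FC 0.95 ± 0.16, FDR = 0.0194). The next lowest p in that list was that of grem2b, a secreted BMP antagonist, at a log2FC of 0.62 and an FDR of 0.167.

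A family of tetraspan membrane proteins contributed 3 of the 25 genes. The ms4a17a genes are a cluster of near copies related to mammalian MS4A genes such as the B cell antigen CD20, and reads may be split among them by the counting, so single members are uncertain. The gene ms4a17a.1 measured 0.127, 0.166, and 0.15 CPM in WT and 0.71, 0.732, 0.85, 0.796, and 1.45 CPM in fbn3-/- (log2FC 2.59 ± 0.34, FDR = 0.00301). In ms4a17a.12 the values were 0.023, 0.0935, and 0.0285 CPM in WT and 0.266, 0.249, 0.37, 1.14, and 1.45 CPM in fbn3-/- (log2FC 3.99 ± 0.72, FDR = 0.0194). The gene ms4a17a.4 had 0, 3, and 7 reads in WT and 12, 14, 12, 137, and 94 reads in fbn3-/- libraries (log2FC 4.12 ± 0.79, FDR = 0.03). For these last members replicates 4 and 5 stood several-fold above replicates 1 to 3, while for ms4a17a.1 all 5 fbn3-/- libraries lay above WT and replicate 5 was the highest. Of 13 ms4a17a genes tested, 12 had a log2FC above 0, against 51.6% of all genes, and 3 were called higher, against 0.136%. In 6 of the 13 every fbn3-/- library lay above every WT library, against 3.74% of all genes. The family was taken up because members were called, and near copies may share reads, so these counts are not independent. The exception, ms4a17a.10, measured 0.553, 0.914, and 0.599 CPM in WT and 1.03, 0.621, 0.617, 0.501, and 0.403 CPM in fbn3-/- (log2FC -0.18, FDR = 0.862). In ms4a17a.8 the fbn3-/- libraries split, with 7.01, 5.84, and 6.55 CPM in fbn3-/- replicates 1 to 3 and 0.948 and 0.847 CPM in replicates 4 and 5, against 0.438, 0.447, and 1.95 CPM in WT (FDR = 0.355). These relatives were chosen after their values were seen.

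Few markers of leukocytes passed the test. Of 20 neutrophil markers, scpp8 alone was called, and the median log2FC was 0.10. At an unadjusted p under 0.05, 3 were higher (15%, against 6.19% of all genes) and 0 lower. The defining neutrophil marker mpx, a myeloperoxidase, measured 26.6, 58.8, and 32.5 CPM in WT and 35.08, 35.8, 33.5, 36, and 45.2 CPM in fbn3-/- (log2FC -0.08 ± 0.40, FDR = 0.96). The groups overlapped fully for mpx. Of 27 macrophage markers none was called, and the median was 0.13. At that p, 5 were higher (18.5%, against 6.19% of all genes) and 1 lower (3.7%, against 4.19%). The 2 with the lowest p were lgals9l1, a galectin, at a log2FC of 1.14 (FDR = 0.157), and mpeg1.2, a perforin-like gene, at 1.65 (FDR = 0.27).

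Genes of nerve, muscle, and vessel were also among the higher ones. The gene cart3 encodes a neuropeptide of the CART family, which in mammals acts in feeding and stress circuits. It measured 1.27, 1.23, and 0.963 CPM in WT and 6.11, 5.83, 5.71, 7.35, and 8.56 CPM in fbn3-/- libraries. With a log2FC of 2.56 ± 0.20, or a 5.90-fold higher level, and an FDR of 1.22e-05, it had the lowest FDR together with fbn2b. Of 46 neuropeptide and pituitary hormone genes tested, cart3 alone was called, and the median was -0.085. At an unadjusted p under 0.05, 1 was higher (2.17%, against 6.19% of all genes) and 4 were lower (8.7%, against 4.19%). The gene arpp21, a cAMP-regulated phosphoprotein of neurons, measured 7.14, 7.24, and 5.74 CPM in WT and 14.3, 18.3, 20.4, 21.4, and 15.6 CPM in fbn3-/- (log2FC 1.43 ± 0.22, FDR = 0.0105).

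The gene chrng encodes the γ subunit of the embryonic acetylcholine receptor of muscle. It measured 2.29, 3.07, and 2.71 CPM in WT and 6.3, 8.09, 6.55, 7.93, and 8.59 CPM in fbn3-/- (log2FC 1.48 ± 0.28, FDR = 0.038). In WT at 1 dpf its mean was 28.7 CPM, so that fbn3-/- embryos at 2 dpf lay between the WT levels of both stages. The same comparison was not made across all genes, and its cause was not tested. The hyaluronan receptor lyve1a, which marks lymphatic and venous endothelium, measured 2.87, 2.48, and 2 CPM in WT and 5.63, 4.94, 4.89, 6.1, and 8.17 CPM in fbn3-/- (log2FC 1.29 ± 0.24, FDR = 0.038). The scavenger receptor stab1 of venous endothelium and macrophages was below the fold limit, at 23.9, 25.4, and 23.2 CPM in WT and 37.6, 38, 36.7, 32.1, and 31.7 CPM in fbn3-/- (log2FC 0.54 ± 0.10, FDR = 0.0288). Of 43 endothelial markers, a list without lyve1a, none was called and the median log2FC was 0.03. At an unadjusted p under 0.05, 3 of the 43 markers were higher (6.98%, against 6.19% of all genes) and 5 lower (11.6%, against 4.19%). In 8 of them (18.6%, against 3.74% of all genes) every fbn3-/- library lay above every WT library, and in 1 every one lay below. The neuronal list (41 genes, median -0.11), the skeletal muscle list (57 genes, median 0.045), and the heart list (41 genes, median 0.056) had no call either. The called genes arpp21 and chrng are not on these lists.

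Enzymes of small-molecule metabolism moved in both directions. The cytochrome P450 gene cyp2x8 had 2, 5, and 1 reads in WT and 13, 18, 7, 37, and 17 reads in fbn3-/- (log2FC 2.94 ± 0.62, FDR = 0.038). The UDP-glucuronosyltransferase ugt5a1 had 4, 1, and 1 reads in WT and 5, 23, 10, 41, and 20 reads in fbn3-/- (log2FC 3.42 ± 0.71, FDR = 0.038). Both rest on few reads, and for ugt5a1 the groups came closest between WT replicate 1 (0.0461 CPM) and fbn3-/- replicate 1 (0.0888 CPM). Of 77 cytochrome P450 genes tested, 1 was called higher and 2 lower (cyp2x10.2 and cyp26a1), and the median was 0.069. At an unadjusted p under 0.05, 6 were higher (7.79%, against 6.19% of all genes) and 10 lower (13%, against 4.19%).

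The other 6 of the 25 genes have no described product name in the table. The gene si:ch73-181m17.1 measured 0.161, 0.197, and 0.0499 CPM in WT and 1.08, 3.01, 2.11, 3.8, and 1.68 CPM in fbn3-/- (log2FC 4.26 ± 0.52, FDR = 0.00193). The gene CABZ01083546.1 had 4, 2, and 3 reads in WT and 22, 36, 30, 67, and 35 reads in fbn3-/- (log2FC 3.84 ± 0.52, FDR = 0.00289). In both, the groups were separated by at least the spread of the WT libraries. The log2FC was 3.32 for si:ch1073-15f12.3, 1.73 for si:ch211-264f5.2, 1.70 for BX649485.2, and 1.62 for zgc:194007, each with groups that did not overlap and FDR values from 0.0194 to 0.0465.

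**Figure D3:**
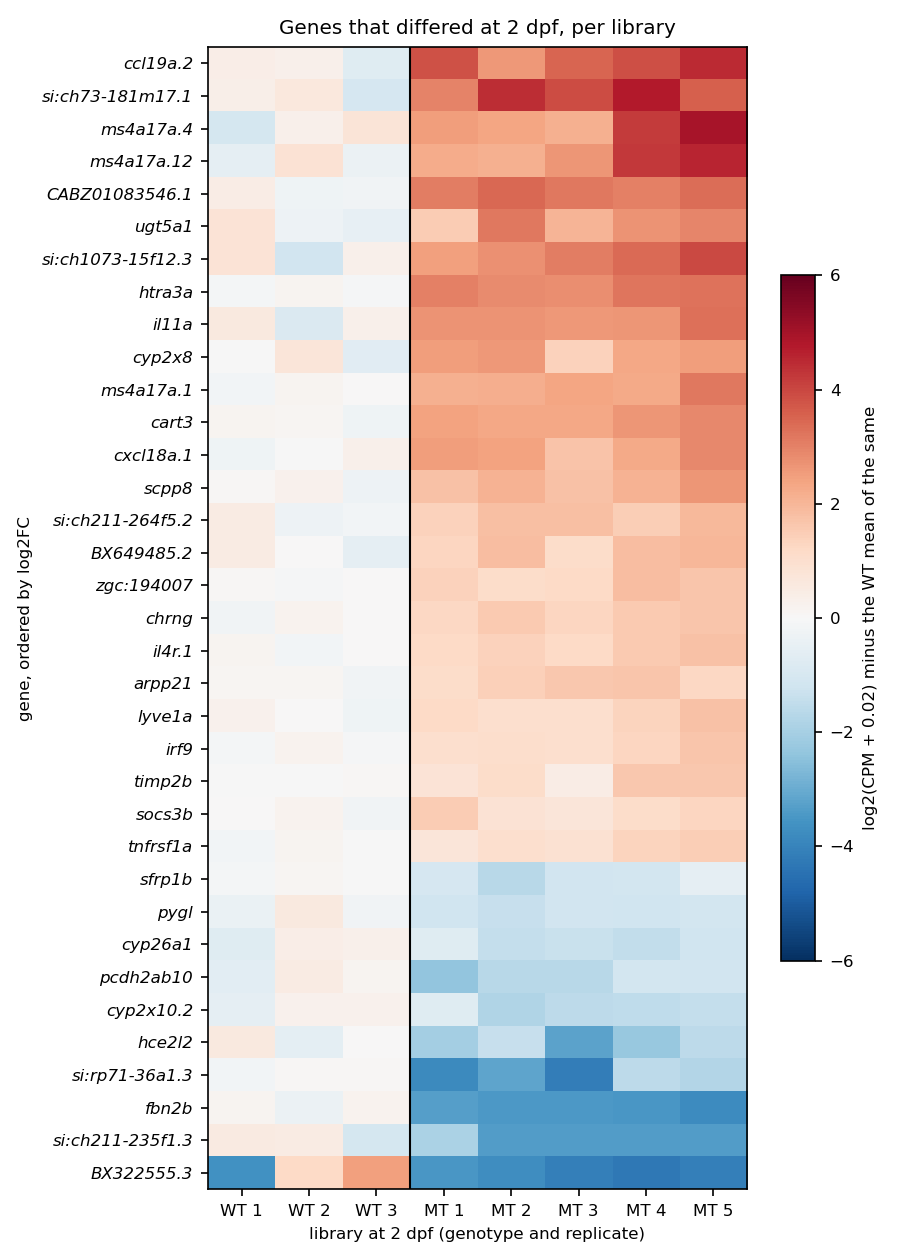
Rows are the 35 named genes in the order of log2FC and columns are the 8 libraries at 2 dpf (WT 1 to 3, then fbn3-/- as MT 1 to 5), and the color gives log2(CPM + 0.02) minus the mean of the same value in WT. The groups do not overlap for 25 of 25 higher genes and 9 of 10 lower genes, and BX322555.3 is low in WT replicate 1.

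Genes lowered in fbn3-/- embryos were fewer, with fbn2b and 9 others. The liver-type glycogen phosphorylase pygl, which releases glucose units from glycogen, measured 41.6, 81.7, and 47 CPM in WT and 23.8, 20.9, 24.2, 23.4, and 25.3 CPM in fbn3-/- libraries. The fbn3-/- values were close together and below all WT values, with a log2FC of -1.27 ± 0.18 (FDR = 0.00618). Of 64 glycolysis, gluconeogenesis, and glycogen genes, pygl alone was called. At an unadjusted p under 0.05 the list had 4 members higher (6.25%, against 6.19% of all genes) and 4 lower (6.25%, against 4.19%). Its median was -0.031.

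A pair of lowered genes act in morphogen pathways. The gene cyp26a1, which degrades retinoic acid and is expressed in the tail bud, measured 18.3, 39.8, and 38 CPM in WT and 18.2, 11.4, 12.1, 10.9, and 13.2 CPM in fbn3-/- (log2FC -1.29 ± 0.24, FDR = 0.038). WT replicate 1 and fbn3-/- replicate 1 were almost equal, and the log2FC was -0.40 within the lower-numbered and -1.69 within the higher-numbered libraries. The gene sfrp1b, a secreted Frizzled-related modulator of Wnt signaling, measured 21.7, 26.1, and 23.6 CPM in WT and 11.7, 7.42, 10.8, 11.2, and 16.2 CPM in fbn3-/- (log2FC -1.05 ± 0.20, FDR = 0.038). Of 27 segmentation clock and tail bud genes, cyp26a1 alone was called, and the median was -0.11. At an unadjusted p under 0.05, 1 of the 27 was higher and 3 were lower, cyp26a1 included, where 6.19% and 4.19% of all genes were.

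The remaining lowered genes had low levels. The gene hce2l2, related to the astacin-family hatching enzymes, measured 1.21, 0.52, and 0.813 CPM in WT and 0.178, 0.29, 0.0685, 0.147, and 0.255 CPM in fbn3-/- (log2FC -2.21 ± 0.37, FDR = 0.0194). None of 11 hatching gland genes, a list without hce2l2, was called (median -0.048). The clustered protocadherin pcdh2ab10, a neuronal adhesion protein whose close copies may share its reads, measured 1.09, 2.41, and 1.9 CPM in WT and 0.32, 0.525, 0.534, 0.796, and 0.753 CPM in fbn3-/- (log2FC -1.54 ± 0.30, FDR = 0.0467). The cytochrome P450 gene cyp2x10.2 measured 0.438, 0.779, and 0.763 CPM against 0.373, 0.166, 0.206, 0.207, and 0.228 CPM (log2FC -1.57 ± 0.27, FDR = 0.0194). In these genes every fbn3-/- library lay below every WT library, by a narrow margin for cyp2x10.2.

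A further 3 lowered genes have no described product. The gene si:rp71-36a1.3 measured 1.38, 1.61, and 1.6 CPM in WT and 0.0888, 0.152, 0.0685, 0.507, and 0.443 CPM in fbn3-/- (log2FC -2.35 ± 0.38, FDR = 0.0105), with fbn3-/- replicates 4 and 5 above replicates 1 to 3. The gene si:ch211-235f1.3 had 24, 26, and 11 reads in WT and 2, 0, 0, 0, and 0 reads in fbn3-/-. Its ratio of pooled reads scaled to library size, WT over fbn3-/-, was 43.4 with a 95% counting interval from 11.5 to 366 (FDR = 0.038). The gene BX322555.3 had 4, 177, and 617 reads in WT and 3, 3, 2, 4, and 2 reads in fbn3-/- (FDR = 0.0194). For BX322555.3 WT replicate 1 was as low as the fbn3-/- libraries, so the difference rested on WT replicates 2 and 3, and the log2FC was -0.21 within the lower-numbered and -7.00 within the higher-numbered libraries.

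Genes beside fbn2b on its chromosome were examined through an annotation of another assembly (GRCz12tu), in which 80.6% of the genes tested and 31 of the 35 named genes were found. Of the named genes, si:rp71-36a1.3 was the only other one placed on the chromosome of fbn2b, 77 annotated genes away. Of 42 tested genes within 50 annotated genes on either side of fbn2b, 0 were called by edgeR or by DESeq2, and the median log2FC was -0.037. At an unadjusted p under 0.05, 2 of the 42 were higher and 2 lower, where 6.19% and 4.19% of all genes were. Since edgeR called only 0.136% of all genes higher and 0.0425% lower, 0 calls among 42 genes does not set them apart.

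Most of the other lists had medians near that of all genes. Lens crystallins had the second highest median, at 0.38 over 44 genes, with no call. At an unadjusted p under 0.05, 3 were higher (6.82%, against 6.19% of all genes) and 0 lower. The lowest p values were those of cryaa (FDR = 0.384) and crygm5 (FDR = 0.407). The median of this list against WT was 1.15 in fbn3-/- replicate 1 and -0.304 in replicate 5, so the fbn3-/- libraries did not share a direction. Melanin synthesis genes had the lowest median, at -0.24 over 17 genes, with 0 higher and 1 lower (5.88%, against 4.19% of all genes) at an unadjusted p under 0.05. This was tyrosinase, tyr, with 33.5, 38, and 51.8 CPM in WT and 28.6, 20.1, 24.2, 23.6, and 24.8 CPM in fbn3-/- (FDR = 0.1). Against the WT mean, the median of the melanin list ranged from -0.385 to -0.0638 in the 5 fbn3-/- libraries and from -0.121 to 0.193 in the WT libraries.

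Among stress lists, 42 hypoxia response genes had no call and a median of -0.10. Every fbn3-/- library lay above every WT library for 5 (11.9%, against 3.74% of all genes) and below for 2 (4.76%, against 2.45%). At an unadjusted p under 0.05, 6 were higher (14.3%, against 6.19% of all genes) and 9 lower (21.4%, against 4.19%). The 2 with the lowest p were lepb, a leptin, with 0.023, 0, and 0 CPM in WT and 0.32, 0.359, 0.11, 0.0981, and 0.296 CPM in fbn3-/- (FDR = 0.0876), and epas1a, a hypoxia-inducible factor, at a log2FC of 0.78 (FDR = 0.106). Of 39 neural crest genes 2 were higher (5.13%) and 5 lower (12.8%) at that p, with zic1 (FDR = 0.222) and pax7b (FDR = 0.31) the lowest. Of 39 circadian clock genes 6 were higher (15.4%, against 6.19% of all genes) and 2 lower (5.13%, against 4.19%). The medians of cytoplasmic ribosomal protein genes (81 genes, -0.053), DNA replication and mitosis genes (67 genes, -0.062), p53 response genes (38 genes, 0.055), and unfolded protein response genes (47 genes, 0.0024) were close to that of all genes, and none of their members was called. Over the 37 lists with 0 genes called by edgeR, DESeq2 called 5 genes in 4 lists (cldn11b, hspb6, egln3, lepb, and actc1a).

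**Figure D4:**
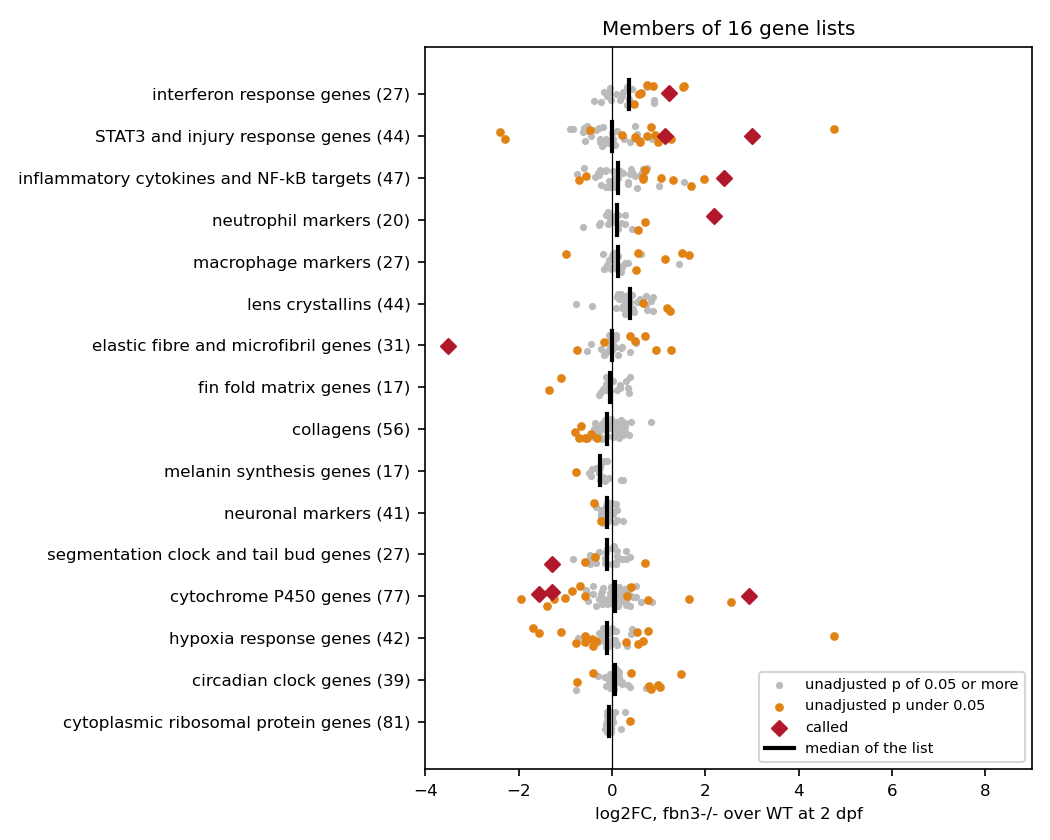
Points are the genes of 16 lists (number of genes tested in parentheses) along log2FC of fbn3-/- over WT at 2 dpf; gray points had an unadjusted p of 0.05 or more, orange points a lower one, red diamonds were called, and the black bar is the median of the list. The medians of the interferon and lens lists lie to the right, at 0.37 and 0.38. Those of the collagen and melanin lists lie slightly to the left, at -0.11 and -0.24.

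At 1 dpf most of these genes did not pass the test, in libraries that are separate from those at 2 dpf. Of the 25 higher genes, 14 had a log2FC above 0 at 1 dpf, against 44.9% of all genes, and 2 of them passed an unadjusted p of 0.05 (3.31% of all genes). These were scpp8, with a mean of 0.041 CPM in WT and 0.35 CPM in fbn3-/- at 1 dpf (log2FC 2.86 ± 0.68), and si:ch1073-15f12.3 at a log2FC of 1.44. Of the 10 lower genes, 9 had a log2FC below 0 at 1 dpf, against 55.1% of all genes, and 3 passed that p (4.03% of all genes). These were fbn2b, si:rp71-36a1.3 at -4.59, and BX322555.3 at -3.78, and fbn2b alone passed an FDR of 0.05 at 1 dpf.

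A test of the difference between the genotype effects at both stages passed an FDR of 0.05 for 1 gene (0.00425% of those tested) and an unadjusted p of 0.05 for 1299. That gene was cart3, with a mean of 2.33 CPM in WT and 2.38 CPM in fbn3-/- at 1 dpf and a difference of 2.53 ± 0.28 between the log2FC values (FDR = 0.00403). For htra3a the difference was larger, at 3.77, but its FDR was 0.13 at these low levels. The genes pygl and sfrp1b were level between genotypes at 1 dpf, at log2FC values of -0.01 and 0.16 and WT means of 5.15 and 3.5 CPM. Their differences between stages had FDR values of 0.515 and 0.692.

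**Figure D5:**
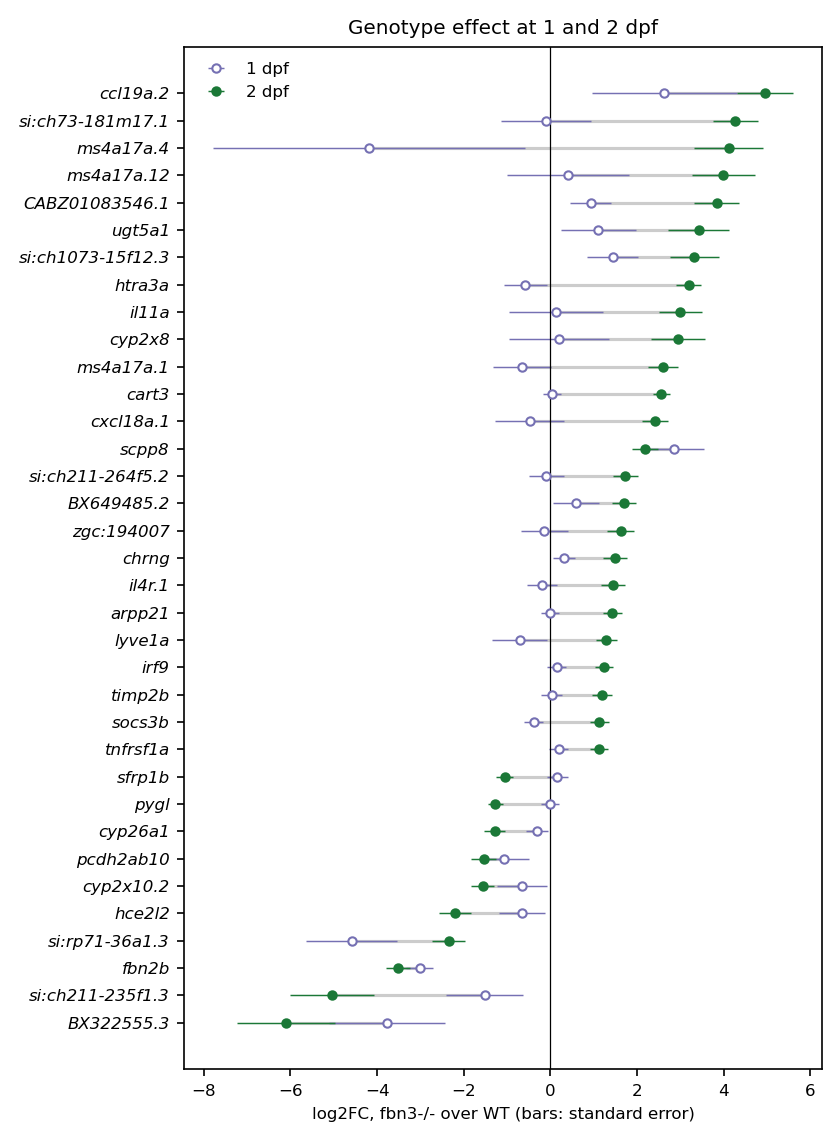
For each of the 35 named genes the log2FC of fbn3-/- over WT (x axis, bars are the standard error) is shown at 1 dpf (open purple circles) and at 2 dpf (filled green circles). The gene fbn2b lies at -3.02 and -3.51, scpp8 at 2.86 and 2.18, and cart3 at 0.03 and 2.56.

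The fbn3-/- libraries differed among themselves in size of response. Of the 25 higher genes, 18 had their highest fbn3-/- value in replicate 5 and 3 in replicate 4, and 12 had their lowest value in replicate 3 and 9 in replicate 1. The log2FC was larger within the higher-numbered than within the lower-numbered libraries for 22 of the 25, but for none of them did the difference between the sets pass an FDR of 0.05. Of the 35 named genes, 8 stayed called when any 1 of the 8 libraries was left out, namely fbn2b, cart3, htra3a, ccl19a.2, cxcl18a.1, scpp8, ms4a17a.1, and si:ch73-181m17.1.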

How the data were processed

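Zebrafish libraries were grouped by genotype and stage from their labels. Per the labels and the methods of the study, the authors trimmed reads (Trim Galore 0.6.6), aligned them to GRCz11 with STAR 2.7.6a, counted them per gene with featureCounts (Subread 2.0.0), and deposited whole-number read counts without normalization. The annotation release and the strand setting of the counting are not given in the sources used here. Of 23 count columns, 15 matched a listed sample by name. WT replicate 3 at 1 dpf matched no column and was not analysed here, and 8 columns that matched no sample were not used.

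Genes kept by filterByExpr (minimum count 10, minimum total 15) numbered 23555 of 32520. All 15 libraries were fitted with 1 coefficient per group in edgeR 4.0.16 (R 4.3.3), with TMM scaling, the quasi-likelihood test with legacy set to FALSE, and Benjamini-Hochberg adjustment over all genes. Genes were called at an FDR under 0.05 and an absolute log2FC above 1. The procedure was tested on simulated data. These had the same dispersion for every gene and no effect of the library number, so that test does not cover the spread between the sets seen here. Genes were named by a rule that took fbn2b and every other called gene except complement components and MMPs (35 genes, called the 35 named genes), and, for each of 49 gene lists, the members called or else at most 2 with the lowest p, given as values. Others are marked as chosen after their values were seen. Lists were described by counts and medians without a test. The members and lists were chosen with earlier results of these data known. Per-library medians of lists used log2(CPM + 0.1). Shares of counts were compared with exact permutation tests over 8 libraries.

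Alternatives were RLE scaling, DESeq2 1.42.0, the likelihood ratio test, limma-voom (limma 3.58.1), the legacy quasi-likelihood method, other filters on low counts, the 2 dpf libraries alone, the set of library numbers as a covariate, a replicate block, and each library left out. Contrasts within each set of library numbers were added after the data were seen. Depths of 52451122 to 179887580 reads at 2 dpf leave a gene at 0.05 CPM with only a few reads per library. Tables and plots were made with Python 3.11.15, pandas 2.3.3, numpy 2.4.6, SciPy and matplotlib 3.10.9.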

Additional observations from a re-analysis of the deposited data

Results flagged for a closer look

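In fbn3-/- embryos at 2 dpf, replicate 5 stood apart from the other 4 libraries in il11a, at 0.726 CPM against 0.439 to 0.47 CPM, and in ms4a17a.1, at 1.45 CPM against 0.71 to 0.85 CPM. Both genes remained above every WT library in all 5. In si:ch211-235f1.3, replicate 1 stood apart at 0.0355 CPM (2 reads), while the others had 0 reads. These libraries passed Dixon's critical value at the 95% level, which by its construction about 1 in 20 groups pass by chance, and 3 of the 35 named genes did. That rate holds for normally distributed values, not for a few reads. In si:ch211-235f1.3 the other fbn3-/- libraries were tied at 0 reads, so any read in replicate 1 would have passed. The genotype effect on cart3 differed between stages, by 2.53 on the log2 scale (edgeR FDR = 0.00403), with a log2FC of 0.03 at 1 dpf and all 5 fbn3-/- libraries above all 3 WT libraries at 2 dpf.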

How the results depend on the processing

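None of the 35 called genes described changed sign under any alternative, but they were selected on the same libraries, which makes a change of sign unlikely. RLE scaling gave 43 calls (32 higher, 11 lower) and kept all 42. DESeq2 called 107 genes (79 higher, 28 lower), the likelihood ratio test 93 (67 and 26), limma-voom 34 (27 and 7), and the legacy quasi-likelihood method 13 (11 and 2). No filter gave 41 calls, the CPM filter 25 (19 and 6), the 2 dpf libraries alone 20 (15 and 5), and the set of library numbers as a covariate 70 (52 and 18). Within the lower-numbered libraries 17 genes were called (6 and 11), with WT represented by 1 library that was assumed to vary like the other groups, and within the higher-numbered libraries 794 (418 and 376). The cause of these differences was not tested. Leaving out 1 library gave 13 to 192 calls (10 to 122 higher and 3 to 70 lower), and 10 to 35 of the 35 named genes stayed called. With replicates 1 to 3 and a replicate block, 52 genes were called (25 and 27), against 51 (35 and 16) without the block. Deviations from the group mean had a Pearson r of -0.0277, -0.164, and -0.114 across genes between same-numbered WT and fbn3-/- libraries. The set of library numbers was not removed from these deviations, so they cannot decide whether the replicate numbers pair the libraries. Of the 35 named genes, 6 stayed called under each alternative whose filter kept them, the within-set contrasts left aside: fbn2b, cart3, htra3a, ccl19a.2, ms4a17a.1, and si:ch73-181m17.1. Medians of the 49 lists moved by at least the spread of the fbn3-/- libraries in 0 to 8 lists under each of the 11 alternatives run for them (RLE scaling, the 2 dpf libraries alone, the covariate, and each library left out), most without WT replicate 1, and no median above 0.2 in size changed sign. The difference of cart3 between stages passed the FDR under RLE scaling and both filter settings. Of the 25 higher named genes, 10 had means under 1 CPM in both groups, and depth limits these most.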

Other observations

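Some genes were present in single libraries or sets and are given as values only, chosen after they were seen. The cardiac actin gene actc1a measured 237 and 102 CPM in fbn3-/- replicates 4 and 5, but 0.67 to 1.49 CPM in WT and 1.05 to 1.63 CPM in fbn3-/- replicates 1 to 3. Its genotype effect differed between the sets of library numbers by 7.73 on the log2 scale (edgeR FDR = 0.000275), and the FDR of the 2 dpf contrast was 0.191. Actin genes share long stretches of sequence, and the part of read assignment was not tested.

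WT libraries differed from each other in a similar manner. The genes fgfr1bl, CR352226.5, and zgc:171490 measured 5.03, 4.58, and 0.899 CPM in WT replicate 1 and were at 0 in the other 7 libraries at 2 dpf. In contrast, itga2.3, an integrin subunit, measured 3.02 and 4.00 CPM in WT replicates 2 and 3 and from 0.235 to 0.753 CPM in the other 6 libraries, WT replicate 1 included. The gene si:ch211-167j9.4 measured 1.61, 2.51, and 3.47 CPM in the 3 WT libraries and 0 in all 5 fbn3-/- libraries, and its FDR was 0.082. The endothelial receptor kdrl followed the set of library numbers, with 98.4, 115, 142, and 134 CPM in the lower-numbered and 44.3 to 49.3 CPM in the higher-numbered libraries of both genotypes.

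The covariate for the library number set added 3 ms4a17a genes and cfbl to the calls, among others. The gene ms4a17a.2 measured 0.207, 0.322, and 0.0856 CPM in WT and 0.55, 0.456, 0.206, 1.83, and 2.51 CPM in fbn3-/- libraries, where replicate 3 lay within the WT range.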
